A study of Capra hircus with 9 samples.

Results

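The genes described here encode 9 receptors that tune T cell activation: CD28, ICOS, CD27, CD2, CTLA4, PDCD1, BTLA, CD5 and CD6. They were taken by symbol from the table of the series, with the known and newly assembled transcripts of each gene summed, and all 9 were found among 21665 genes (22 of 52739 transcripts). RNA-seq libraries were made from submandibular glands of 9 healthy female Lubo goats kept under the same conditions, 3 at 1 month of age (group A), 3 at 12 months (group B) and 3 at 24 months (group C). All goats were fasted and given xylazine hydrochloride for general anaesthesia before slaughter. No treatment that differs between the groups and no genetic change is given, so age is the factor compared. Each library came from a separate goat. The submandibular gland is a major salivary gland, and the study asked how its gene expression, immune genes in particular, differs with age.

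A T cell that meets antigen through its receptor is activated fully only when costimulatory receptors also bind their ligands on the partner cell. CD28 and ICOS give such a signal, CD27 is a costimulator of the TNF receptor family, and CD2 is an adhesion molecule that strengthens contact between the cells. CTLA4 competes with CD28 for the same ligands, and PD-1 (encoded by PDCD1) and BTLA are checkpoint receptors that restrain activation. CD5 and CD6 are related scavenger receptor family proteins that modulate signalling from the antigen receptor. Most of these proteins are carried mainly by T cells and their thymic precursors, but not by these cells alone. CD27, for example, also marks subsets of B cells and plasma cells.

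Levels are given as CPM, counts scaled by library size, from which levels of different genes cannot be compared because transcript lengths were not used here. Expected counts per library summed to 2.01e+07 to 2.63e+07, and 3 counts, taken as the limit of detection, correspond to 0.0836 to 0.174 CPM. Each pair of ages was compared by the quasi-likelihood test of edgeR, with p-values adjusted by the Benjamini-Hochberg method over every gene tested. A gene counted as called when its adjusted p was below 0.05 and its log2 fold change was beyond 2 in either direction. The log2 fold change is that of the older age against the younger, so that a negative value is a lower level in the older goats. The comparisons of 12 and of 24 months with 1 month share the same 1-month libraries. In whole-gland RNA, fewer cells of a type and less RNA per cell cannot be told apart.

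The library labelled 1-month replicate 2 stood apart and was low in salivary markers. Its AQP5, the water channel of acinar cells, was at 0.495 CPM against 217 and 129 CPM in 1-month replicates 1 and 3, and its PIGR, the transporter of IgA into saliva, was at 4.74 CPM against 833 and 1013 CPM. The salivary list (AQP5, SLC12A2, PIGR, BHLHA15, KRT7 and KRT5) summed to 191 CPM in this library, of which the basal keratin gene KRT5 gave 131 CPM, against 1955 and 2236 CPM in the other 1-month libraries. That sum was 16772 to 19991 CPM at 12 months and 12097 to 18777 CPM at 24 months.

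Markers of thymus were present in every 1-month library, and the thymocyte list summed highest in replicate 2. The thymocyte list (RAG1, RAG2, PTCRA, DNTT, ARPP21 and LEF1) summed to 1082 to 6378 CPM at 1 month, 1.36 to 2.23 CPM at 12 months and 1.44 to 2.73 CPM at 24 months. FOXN1, the transcription factor that defines thymic epithelium, was at 15.7, 80.5 and 5.58 CPM in 1-month replicates 1, 2 and 3, and no library at 12 or 24 months was above 3 counts. The T cell list (CD3D, CD3E, CD3G, CD247, CD4, CD8A, CD8B and TRAT1) summed to 816 to 6715 CPM at 1 month, 10.2 to 18.0 CPM at 12 months and 22.8 to 26.1 CPM at 24 months. The part of these cells in the differences between ages was not tested, and results are also given without 1-month replicate 2.

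**Figure D1:**
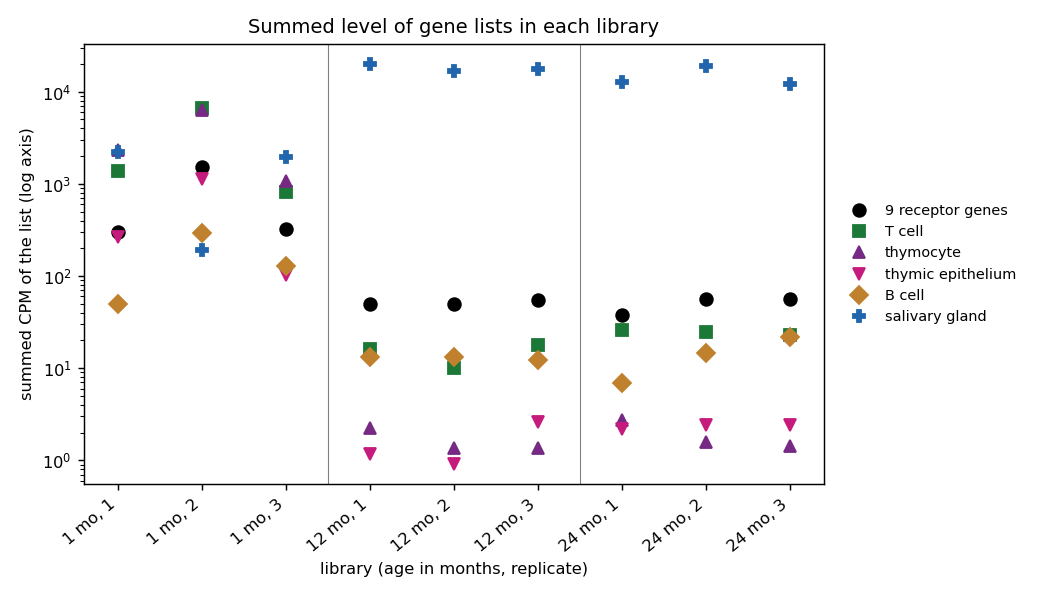
Summed CPM of the 9 receptor genes and of 5 marker lists (vertical log axis) in each of the 9 libraries (horizontal axis, age in months and replicate), one point per list and library. The receptor sum was 300 to 1525 CPM at 1 month, 49.3 to 55.0 CPM at 12 months and 38.0 to 56.7 CPM at 24 months, and in 1-month replicate 2 the T cell, thymocyte and thymic epithelium sums were highest and the salivary sum lowest.

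Of the 9 receptor genes, 8 were called lower at 12 months than at 1 month. The background was 10.1% called lower and 2.19% called higher among the 15229 genes tested. The same 8 were called lower at 24 months, at a background of 9.76% called lower and 4.18% higher among 14993 genes. BTLA also had a negative fold change in both comparisons but was not called. The median log2 fold change of the 9 genes was −5.33 at 12 months and −5.04 at 24 months, whereas that of all genes tested was −0.04 in both comparisons. The levels at 1 month did not overlap those at 12 months in 8 of the 9 genes, where 27.2% of all genes were lower without overlap. Between 24 months and 1 month this held for 9 of 9, at a background of 23.7%.

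**Figure D2:**
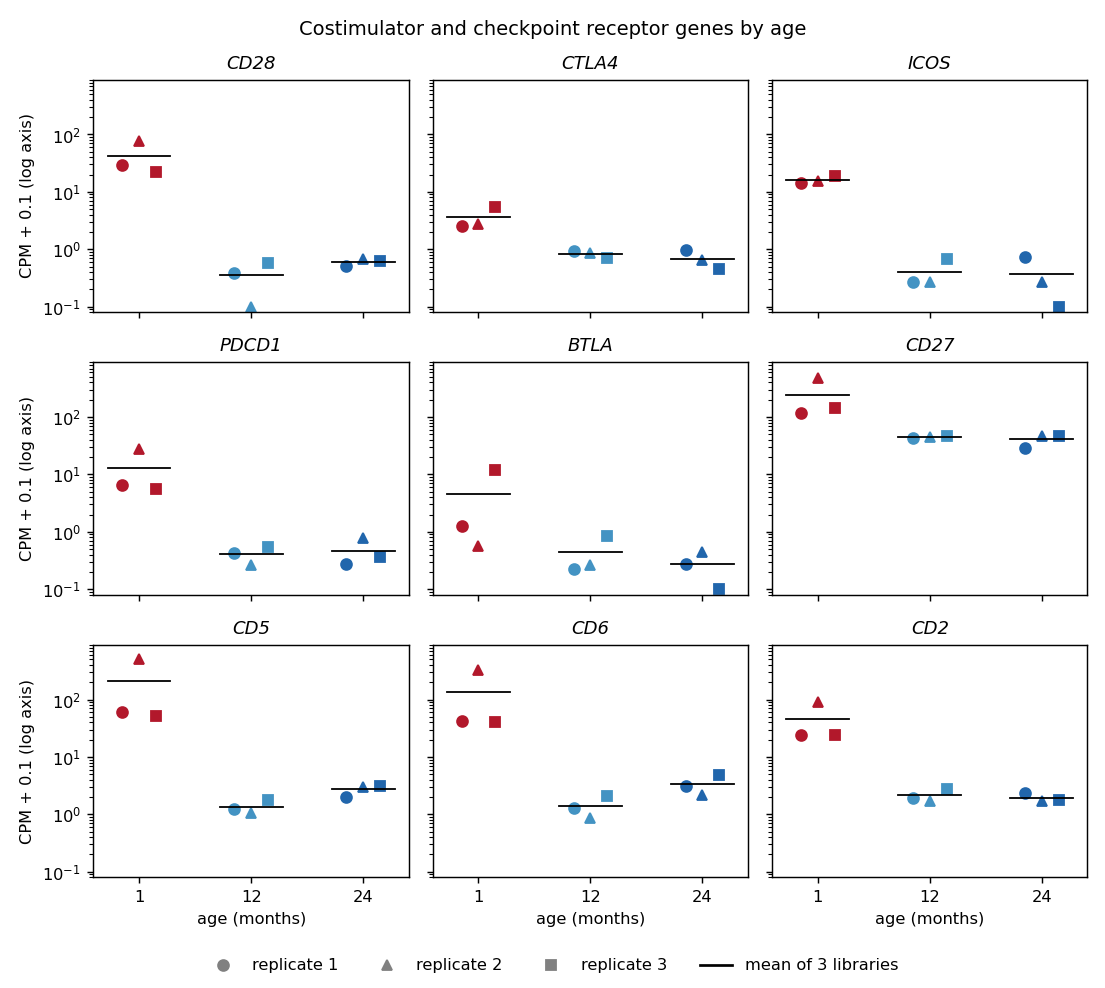
Level of each receptor gene (CPM + 0.1, log axis) in each library by age in months, with the symbol giving the replicate and the line the mean of the 3 libraries. Levels at 1 month lie above those at both older ages for each gene except BTLA, whose 1-month range overlaps the 12-month range, and CD27 keeps 28.5 to 47.4 CPM in the older goats.

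CD28, the principal costimulator, was present in each 1-month library and close to the detection limit later. It was at 29.7, 75.5 and 22.05 CPM in 1-month replicates 1, 2 and 3, at 0.289, 0 and 0.481 CPM at 12 months and at 0.407, 0.564 and 0.513 CPM at 24 months. The 1-month mean of 42.4 ± 28.9 CPM (SD, n = 3) was 165-fold that at 12 months (0.256 ± 0.242) and 85.8-fold that at 24 months (0.495 ± 0.080). The older libraries hold at most 11 expected counts each, so these ratios rest on few reads. The log2 fold change was −7.28 (SE 1.10, adjusted p = 0.00956, edgeR) at 12 months and −6.33 (SE 0.667, adjusted p = 0.00232) at 24 months, or −6.54 and −5.60 without 1-month replicate 2.

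ICOS, the costimulator related to CD28 that supports follicular helper T cells, had the most even levels among the 1-month libraries of the 9 genes. It was at 14.4, 15.4 and 18.8 CPM at 1 month, at 0.165, 0.165 and 0.568 CPM at 12 months and at 0.639, 0.169 and 0 CPM at 24 months. The replicate that led in CD28 thus did not lead in ICOS, and no older library came near the 1-month range. At 12 months the log2 fold change was −5.67 (SE 0.595, adjusted p = 0.00525, edgeR) and at 24 months it was −5.84 (SE 0.983, adjusted p = 0.00826), and leaving out 1-month replicate 2 moved them to −5.74 and −5.88.

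CD27, the TNF receptor family costimulator, fell but stayed well above the detection limit at both older ages. It was at 119, 475 and 146 CPM at 1 month, at 43.4, 45.4 and 45.8 CPM at 12 months and at 28.5, 47.4 and 46.1 CPM at 24 months. The 12-month libraries spanned only a narrow range, with a mean of 44.9 ± 1.28 CPM (SD, n = 3), which was 18.2% of the 1-month mean. Its fitted log2 fold change was −2.44 (SE 0.577, adjusted p = 0.0308, edgeR) and −2.52 (SE 0.614, adjusted p = 0.0266) at 12 and 24 months. Without 1-month replicate 2 it was −1.56 (SE 0.130, adjusted p = 0.000611) and −1.60 (SE 0.332, adjusted p = 0.00661), which passes the threshold on p but not that on fold. B cells, which can carry CD27, were represented by a B cell list (MS4A1, CD79A, CD79B, PAX5 and CD22). It summed to 49.9 to 293 CPM at 1 month, 12.1 to 13.3 CPM at 12 months and 6.97 to 22.0 CPM at 24 months. CD79A gave most of the older sums, with means of 10.1 CPM at 12 months and 9.60 CPM at 24 months. The means of MS4A1 at these ages were 0.133 and 0.176 CPM. The part of B cells in the CD27 level was not tested.

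CD2, the adhesion receptor, was lower at both older ages and remained detectable in every library. It was at 24.0, 90.5 and 24.5 CPM at 1 month, at 1.81, 1.59 and 2.71 CPM at 12 months and at 2.27, 1.63 and 1.64 CPM at 24 months. The 12- and 24-month ranges overlapped, and both lay below each 1-month library. For CD2 the log2 fold change was −4.48 (SE 0.683, adjusted p = 0.00983, edgeR) at 12 months and −4.58 (SE 0.669, adjusted p = 0.00575) at 24 months, or −3.56 and −3.62 without 1-month replicate 2.

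Among the inhibitory receptors, CTLA4 had the smallest fitted change of the 9 genes at both ages with all 6 libraries. Its SE interval overlapped that of CD27 at both ages, and without 1-month replicate 2 the change of CD27 was the smallest (−1.56 and −1.60). CTLA4 was at 2.47, 2.65 and 5.38 CPM at 1 month, at 0.825, 0.769 and 0.612 CPM at 12 months and at 0.871, 0.538 and 0.359 CPM at 24 months. The older libraries hold 7 to 20 expected counts of CTLA4 each. The 1-month mean was 4.76-fold that at 12 months and 5.94-fold that at 24 months, with replicate 3 as the highest 1-month library. For CTLA4 the log2 fold change was −2.19 (SE 0.477, adjusted p = 0.0247, edgeR) and −2.46 (SE 0.616, adjusted p = 0.0293), or −2.42 and −2.63 without 1-month replicate 2. FOXP3, the transcription factor of regulatory T cells, which carry CTLA4, was at 3.26, 13.9 and 3.82 CPM at 1 month and at 1.11 to 1.80 CPM in the 6 older libraries.

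PDCD1, which encodes PD-1, was lower at both older ages. It was at 6.48, 27.1 and 5.41 CPM at 1 month, at 0.329, 0.165 and 0.437 CPM at 12 months and at 0.174, 0.676 and 0.257 CPM at 24 months. The older libraries hold 3 to 12 expected counts each, and their ranges at 12 and 24 months overlapped. For PDCD1 the log2 fold change was −5.33 (SE 0.866, adjusted p = 0.0114, edgeR) at 12 months and −5.04 (SE 0.912, adjusted p = 0.0106) at 24 months, or −4.19 and −3.90 without 1-month replicate 2.

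BTLA, which binds the TNF receptor family protein HVEM, was the gene whose change was not called in either comparison. It was at 1.15, 0.460 and 11.8 CPM at 1 month, at 0.123, 0.165 and 0.743 CPM at 12 months and at 0.174, 0.338 and 0 CPM at 24 months. A single 1-month library, replicate 3, held most of the reads, and the 12-month range reached above 1-month replicate 2. The log2 fold change was −3.59 (SE 1.34, adjusted p = 0.10, edgeR) at 12 months and −4.57 (SE 1.42, adjusted p = 0.0553) at 24 months. Without 1-month replicate 2, the lowest of the 3, both passed the thresholds, at −4.20 (adjusted p = 0.0266) and −5.15 (adjusted p = 0.00639).

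CD5 and CD6, which lie next to each other in the RefSeq goat annotation, had a wide spread among the 1-month libraries and large fitted changes. CD5 was at 59.8, 512 and 50.6 CPM at 1 month, at 1.15, 0.934 and 1.66 CPM at 12 months and at 1.92, 2.93 and 2.98 CPM at 24 months. CD6 was at 43.0, 327 and 41.1 CPM at 1 month, at 1.20, 0.769 and 1.97 CPM at 12 months and at 3.02, 2.09 and 4.77 CPM at 24 months. For both genes replicate 2 was far above the other 1-month libraries, which were close to each other. The log2 fold change of CD5 was −7.36 (SE 1.18, adjusted p = 0.0110, edgeR) and −6.25 (SE 1.06, adjusted p = 0.00860) at 12 and 24 months, and it was −5.44 and −4.30 without 1-month replicate 2. That of CD6 was −6.69 (SE 1.10, adjusted p = 0.0119, edgeR) and −5.32 (SE 0.970, adjusted p = 0.0109), and it was −4.98 and −3.58 without that library.

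**Figure D3:**
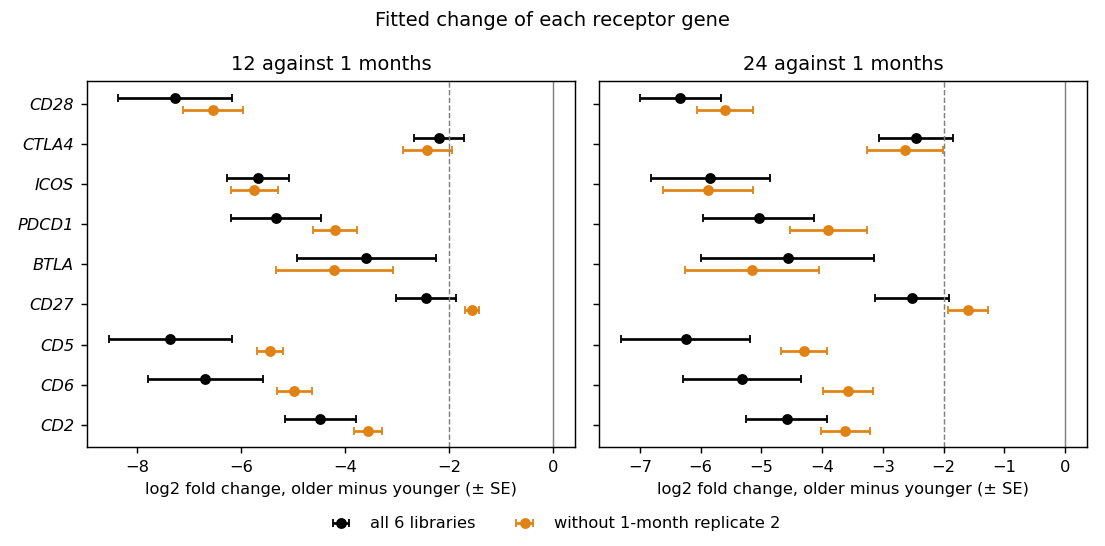
Fitted log2 fold change (horizontal axis, older minus younger) with its SE for each receptor gene at 12 and 24 months against 1 month, with all 6 libraries and without 1-month replicate 2. The dashed line marks a log2 fold change of −2. Leaving out that library moved CD5 from −7.36 to −5.44 at 12 months and CD27 from −2.44 to −1.56, and moved ICOS only from −5.67 to −5.74.

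The SE intervals of CD28, CD5 and CD6 overlapped at 12 months, as did those of CTLA4 and CD27, so that the order of the changes within each of these sets is not resolved. That of ICOS also overlapped those of CD28, CD5, CD6 and CD2. The interval of PDCD1 overlapped those of CD28, CD5, CD6, ICOS and CD2, and that of BTLA overlapped those of PDCD1, CD2, CD27 and CTLA4. The order among these is not resolved either, and no test of order was made. Without 1-month replicate 2, 8 of 9 genes were called in each comparison, with BTLA gained and CD27 lost, and of all genes 13.0% and 15.6% were called. Leaving out 12-month replicate 1, 2 or 3 left 1, 2 and 1 receptor genes called at 12 months, where the shares of all genes called also fell, to 3.09%, 1.59% and 1.82%. Leaving out 24-month replicate 1, 2 or 3 left 6, 4 and 3 called at 24 months, beside 10.0%, 4.26% and 4.17% of all genes. The direction stayed the same for all 9 genes in each of these fits.

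The receptor genes differed in how far 1-month replicate 2 exceeded the other 1-month libraries. Relative to the mean of replicates 1 and 3, it was 9.27-fold for CD5, 7.78-fold for CD6, 4.56-fold for PDCD1, 3.74-fold for CD2, 3.59-fold for CD27 and 2.92-fold for CD28. ICOS was at 0.928-fold, CTLA4 at 0.676-fold and BTLA at 0.0709-fold. For comparison, the antigen receptor genes CD3E and CD3D were at 8.03-fold and 6.69-fold in the same library, and CD3G at 1.00-fold. Since this is a single library, no test applies.

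Between 12 and 24 months, 0 of the 5 receptor genes that passed the filter on low counts were called by edgeR or by DESeq2. CD28, ICOS, PDCD1 and BTLA were too low to be tested. Of all 14290 genes 0.0% were called by edgeR and 13 genes by DESeq2, while 11.7% had an unadjusted p under 0.05 in edgeR. CD5 was higher at 24 months without overlap, with a log2 fold change of 1.10 (SE 0.438, unadjusted p = 0.0319, adjusted p = 0.407, edgeR). CD6 was also higher without overlap, at 1.35 (SE 0.489, unadjusted p = 0.0205, adjusted p = 0.407, edgeR), and 7.83% of all genes were higher in this way. CTLA4, CD27 and CD2 had log2 fold changes of −0.26 (SE 0.607), −0.10 (SE 0.255) and −0.11 (SE 0.422), each well within the spread between libraries.

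The ligands that these receptors bind had smaller median changes than the receptors, and fewer of them were called. Of 10 listed ligand genes, TNFRSF14 was not found by symbol, CD70, the ligand of CD27, was too low to be tested, and the other 8 had a median log2 fold change of −2.21 at 12 months and −1.79 at 24 months. At 12 months 4 of 8 were called lower, and at 24 months 2 of 8, with 0 called higher in either comparison. CD48, a ligand of CD2 in rodents, was at 95.8, 126 and 181 CPM at 1 month and at 5.13 to 13.6 CPM in the older libraries. Its log2 fold change was −3.55 (adjusted p = 0.00496, edgeR) at 12 months and −3.84 (adjusted p = 0.00328) at 24 months. PDCD1LG2, a ligand of PD-1, was the other gene called at both ages, at −3.35 (adjusted p = 0.0119, edgeR) and −2.87 (adjusted p = 0.0118).

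Of the remaining ligands, CD80 and CD274 were called lower at 12 months. CD80, a ligand of CD28 and CTLA4, had a log2 fold change of −2.69 (adjusted p = 0.0174, edgeR) at 12 months and −1.91 (adjusted p = 0.0615, not called) at 24 months. CD86, which binds the same receptors, had −1.93 and −1.98 (adjusted p = 0.0619 and 0.0578, edgeR, neither called). CD274, which encodes the PD-1 ligand PD-L1, had −2.50 (adjusted p = 0.0301, edgeR) at 12 months and −1.67 (adjusted p = 0.112, not called) at 24 months. ICOSLG, the ligand of ICOS, was at 22.4, 90.4 and 33.6 CPM at 1 month and at 12.7 to 30.2 CPM later, and it was called at neither age. Between 12 and 24 months 0 of the 8 ligands were called by edgeR or DESeq2, and 0 had an unadjusted p under 0.05 in edgeR.

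CD58 and ALCAM were not called in either direction. CD58, a ligand of CD2, was at 57.6, 66.1 and 78.8 CPM at 1 month and at 51.2 to 68.1 CPM in the older libraries, with log2 fold changes of −0.13 and −0.09. ALCAM, the ligand of CD6, is an adhesion molecule of epithelial and other cells. It was at 51.1, 7.0 and 44.5 CPM at 1 month, at 119, 141 and 110 CPM at 12 months and at 176, 72.3 and 76.7 CPM at 24 months. The older levels lay above all 1-month libraries, as 26.1% of all genes did at 12 months and 20.0% at 24 months, but the log2 fold changes of 1.92 (adjusted p = 0.0760, edgeR) and 1.76 (adjusted p = 0.107) were not called.

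**Figure D4:**
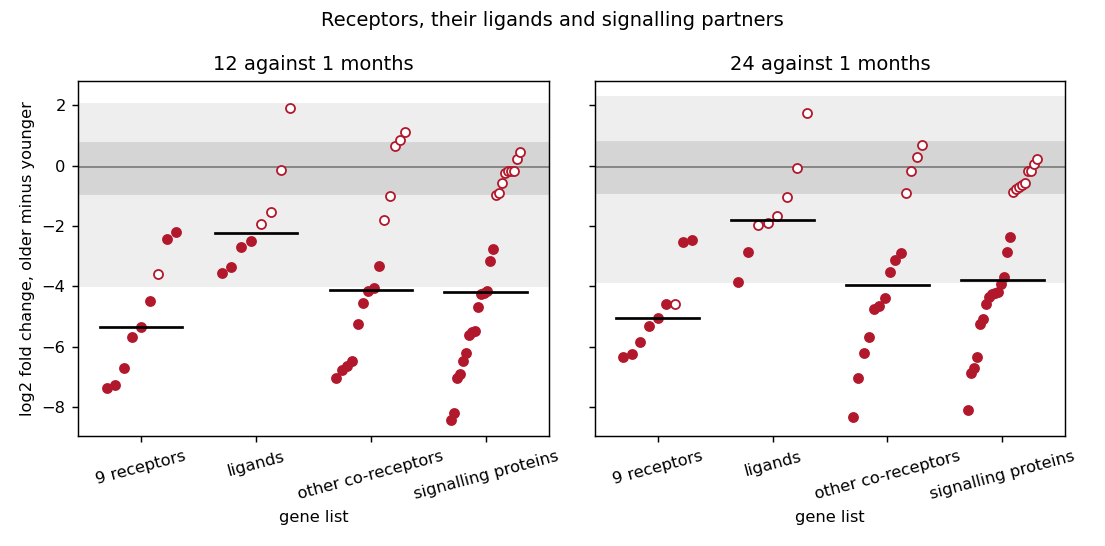
Fitted log2 fold change (vertical axis, older minus younger) of each tested gene of 4 lists at 12 and 24 months against 1 month. Filled points were called, open points were not, black bars are list medians, and the grey line and bands are the median, the middle 50% and the middle 90% of all genes tested. The medians of the receptors, other co-receptors and signalling genes lie near or below the lower edge of the wide band, and 4 ligands at 12 months and 6 at 24 months are open points.

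Of 14 tested genes in a list of other costimulatory and checkpoint receptors, 9 were called lower at 12 months and 10 at 24 months. The list medians were −4.10 and −3.94. At 12 months the largest falls were those of CD7 (−7.05, adjusted p = 0.0102, edgeR), TNFRSF18 (−6.78, adjusted p = 0.00784) and TNFRSF9 (−6.62, adjusted p = 0.0123), of which the latter pair are TNF receptor family costimulators. At 24 months they were TNFRSF9 (−8.32, adjusted p = 0.00269, edgeR), TNFRSF4 (−7.04, adjusted p = 0.00620) and TNFRSF18 (−6.21, adjusted p = 0.00530). TNFRSF9 was at 5.04, 4.67 and 14.4 CPM at 1 month and had reads in only 1 library at 24 months, at 0.0580 CPM, so that its fitted value there rests on almost no reads. HAVCR2, TIGIT, CD96 and VSIR were called in neither comparison, and the first of these, which encodes the checkpoint receptor TIM-3, had log2 fold changes of 1.13 and 0.70.

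Of 24 genes for proteins that act behind these receptors, 15 were called lower at each older age, with medians of −4.18 and −3.80, and 0 were called higher. SH2D1A, the adaptor of SLAM family receptors, fell by 8.43 at 12 months (adjusted p = 0.00624, edgeR) and by 8.10 at 24 months (adjusted p = 0.00142) on the log2 scale. LCK, the kinase that phosphorylates the antigen receptor complex and CD28, was at 219, 1106 and 137 CPM at 1 month and at 1.54 to 4.57 CPM in the older libraries. Its log2 fold change was −8.18 (adjusted p = 0.00734, edgeR) at 12 months and −6.87 (adjusted p = 0.0050) at 24 months. GRAP2, an adaptor that binds CD28, followed at −7.04 (adjusted p = 0.00709, edgeR) and −6.71 (adjusted p = 0.00329).

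The 9 signalling genes that were not called included several that most cell types express. PTPN11, the phosphatase recruited by PD-1, had log2 fold changes of −0.19 and −0.70, and its relative PTPN6 had −0.97 and −0.57. PIK3R1, GRB2, BCL10 and MALT1 lay between −0.19 and 0.44 in both comparisons. Over the 3 lists together, 28 of 46 genes tested were called at 12 months and 27 at 24 months, and without 1-month replicate 2 these were 30 and 28. Leaving out 12-month replicates 1, 2 and 3 gave 15, 7 and 9 at 12 months, and leaving out 24-month replicates 1, 2 and 3 gave 22, 18 and 14 at 24 months. At 24 against 12 months 0 of 41 were called by edgeR or DESeq2, with 7 at an unadjusted p under 0.05.

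Levels were also set against CD3 in the same library, as log2(CPM + 0.5) of each receptor minus the mean over CD3D, CD3E and CD3G, the genes of the antigen receptor complex. The older levels of CD28, and of the other receptors at or near 0.5 CPM, are largely set by the pseudocount on this scale, so no direction is read from them. CD5 overlapped between 1 month and each older age, with means that differed by 0.34 at 12 months and 0.47 at 24 months from that at 1 month. CD27 moved from −0.56, −0.20 and 0.36 at 1 month to 3.92, 4.59 and 3.88 at 12 months and 2.74, 3.41 and 3.60 at 24 months. Its means differed by 4.26 and 3.38 from that at 1 month, less than the median difference of all genes on this scale (6.40 and 5.64). Receptors higher than at 1 month without overlap numbered 7 of 9 at 12 months and 6 of 9 at 24 months, where 98.9% and 98.0% of all genes were, so these counts are no result about the receptors. With a pseudocount of 0.1 they were 4 and 4, and the shares of all genes were not computed at that setting. With 3 against 3 libraries the two-sided exact permutation test cannot go below p = 0.1, and the smallest adjusted p over the 27 tests was 0.15.

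From 12 to 24 months, 5 of 9 receptors were lower relative to CD3 without overlap, as were 48.2% of all genes. They were CTLA4, PDCD1, BTLA, CD27 and CD2, and a count near that share is no result about the receptors. CTLA4, PDCD1 and BTLA are among those near 0.5 CPM, so no direction is read from them. With a pseudocount of 0.1 the number was 3, and the share of all genes was not computed at that setting. CD5 and CD6 differed by 0.13 and 0.36 between these ages, with overlap. The levels of CD3 at these ages rest on few reads.

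At the level of transcripts, CD28, CTLA4, ICOS and CD5 are each represented by a single transcript, and CD27 by 3. The newly assembled CD27 transcript TCONS_00018359 held 69.9% to 81.4% of the gene's expected count at 1 month, 71.5% to 75.01% at 12 months and 64.4% to 76.9% at 24 months. These ranges overlapped. CD6 has 8 transcripts, of which XM_018043503.1 held 41.3% to 44.6% at 1 month and 49.4% to 55.2% at 24 months. The 12-month shares of that transcript ran from 0 to 100%, on 14 to 45 expected counts for the whole gene.

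**Figure D5:**
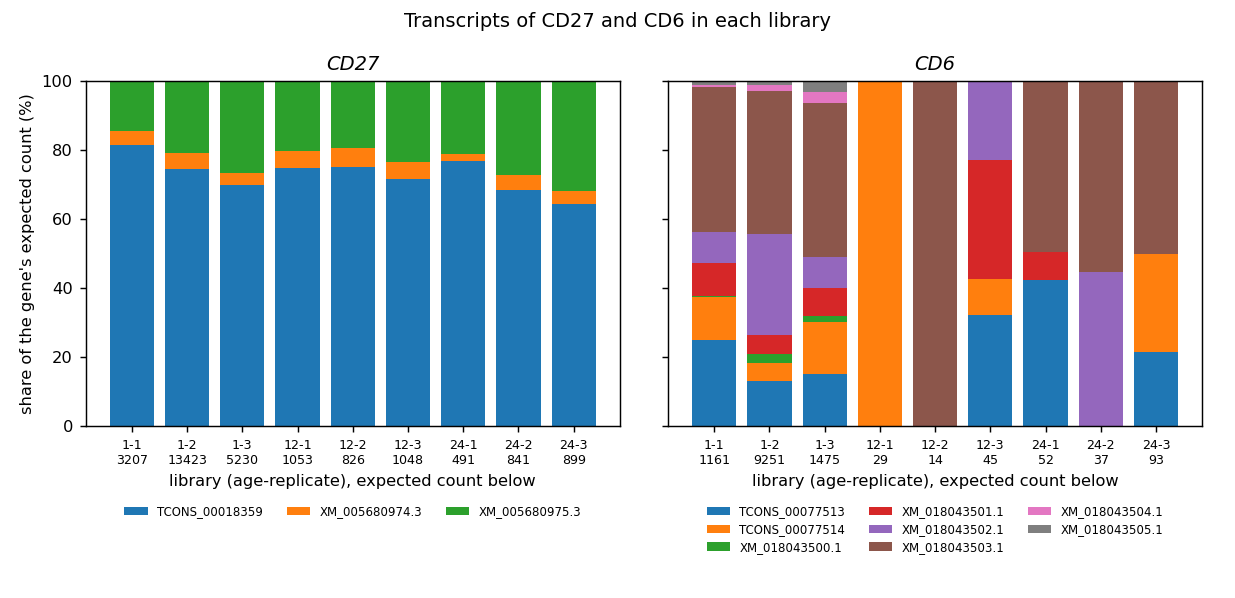
Share of the expected count of CD27 and CD6 assigned to each transcript (vertical axis, percent) in each library (horizontal axis, age and replicate, with the gene's expected count beneath). The new CD27 transcript holds most of that gene's count in every library. CD6 shares differ among the 1-month libraries, where XM_018043502.1 runs from 9.02% to 29.3%, and spread further in older libraries, where the gene has 14 to 93 expected counts.

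PDCD1 and BTLA show how estimates for weakly expressed transcripts vary. For PDCD1, XM_013963098.2 held 82.1% to 89.7% at 1 month, and from 0 to 100% in the older libraries. For BTLA each library with reads had them on a single transcript, which was the new transcript TCONS_00002014 in 1-month replicates 1 and 3 and XM_005674919.3 in 1-month replicate 2. The level of BTLA in 1-month replicate 3, 424 expected counts, thus comes wholly from the new transcript. In tests by transcript, 17 were tested in each comparison with 1 month and all had negative fold changes, and 8 were called at 12 months and 9 at 24 months, beside 5.62% and 6.20% of all transcripts tested. No CD27 transcript was called at 12 months, with adjusted p values of 0.0501, 0.116 and 0.0668 (edgeR). The CTLA4 transcript was called in neither comparison, at adjusted p = 0.0846 and 0.0852 (edgeR).

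The gene whose profile over the 9 libraries was most like that of each receptor was found from centred log2(CPM + 1), among 14170 genes, by the root mean square difference. For CD28 it was TCRB (0.22) and for CD5 it was TRAC (0.28), both genes of the antigen receptor chains, and for CD6 it was SPN (0.29), which encodes a leukocyte sialoglycoprotein. For ICOS it was ERCC6L (0.22), for CD2 SNX20 (0.18) and for PDCD1 GCSAM (0.16). For CD27 it was FEN1 (0.15), a gene of DNA replication, for BTLA CLEC9A (0.17), a dendritic cell gene, and for CTLA4 PIP4K2A (0.15). The root mean square of a receptor's own centred profile ran from 0.71 for CTLA4 to 2.70 for CD5, so a smaller difference is not a closer likeness across receptors. Among the receptors themselves CD5 and CD6 were nearest to each other (0.38). These are likenesses over libraries that share the contrast between 1 month and later ages, and are given without a test.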

How the data were processed

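RNA-seq libraries of strand-marked total RNA from 9 goats were analysed. Per the labels and methods, the authors removed rRNA reads with Bowtie2 2.2.8, aligned with TopHat2 2.1.1, assembled transcripts with Cufflinks and quantified them with RSEM. The genome build is not given in the sources used here. The deposited values are RSEM expected counts multiplied by 1 factor per library: low values were whole multiples of a step, which differed between libraries. Dividing by it gave expected counts whose low gene sums (under 150) were whole within 0.02 in 83.9% to 86.4% of cases. They were summed over 52739 transcripts to 21665 genes, and the sums were rounded for the fits. Among these transcripts, 432 without a symbol were kept under their transcript identifiers.

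Each pair of ages was compared with its 6 libraries in edgeR 4.0.16 (R 4.3.3): genes were filtered with filterByExpr, scaled by TMM and tested by glmQLFTest on a glmQLFit model, and p-values were adjusted by Benjamini-Hochberg over every gene tested. SE was the absolute log2 fold change over the root of F. CPM used TMM over all 9 libraries. The planned fit assumed unscaled expected counts, and values as deposited were an added alternative. Exact permutation tests used scipy 1.17.1. The fit was tested on simulated data. Precision is limited by counting at 3 counts and by 3 goats per age. The limit of 3 counts covers counting error only.

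The receptors and all lists were chosen with earlier results of these data known. Named are all 9 receptors, the ligands, the 3 largest called changes each way per list and the nearest gene. FOXP3, and genes given as not called, were named after their values were seen. VSIR, TRAT1, GZMB and CD163 were matched by product after the data were seen, and TNFRSF14 and CD160 were not found by symbol. In the thymocyte list and the B cell list 1 gene each is not reported here, and both lists were recomputed without it. RefSeq (42652 of 42686 known identifiers matched) gave names and neighbours only.

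Alternatives were DESeq2 1.42.0, its size factors, no count filter, all 9 libraries in one fit, the replicate number as a block, no fold threshold, transcripts in place of genes, another pseudocount and leaving out each library. Added after seeing the data were the values as deposited, limma 3.58.1 on log2(CPM + 0.5), the older quasi-likelihood estimate and RefSeq transcripts only.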

Additional observations from a re-analysis of the deposited data

How the results depend on the processing

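Leaving out 1 library at a time gave 1 to 8 receptors called at 12 against 1 month, 3 to 8 at 24 against 1 month and 0 at 24 against 12 months. For the ligand, co-receptor and signalling lists together it gave 7 to 30, 14 to 28 and 0 to 1, and for receptors apart relative to CD3 it gave 7 to 9, 6 to 8 and 5 to 7. Shares of all genes apart relative to CD3 were not computed with a library left out. Over all genes, leaving out 12-month replicates 1, 2 and 3 gave 483, 250 and 287 calls against 1866, leaving out 24-month replicates 2 and 3 gave 663 and 646 against 2090, and leaving out 24-month replicate 1 gave 182 against 0 between 12 and 24 months. Fewer samples enter each of these fits. A pseudocount of 0.1 in place of 0.5 gave 4 receptors apart relative to CD3 at 12 against 1 month and 3 at 24 against 12 months. Shares of all genes were not computed at 0.1, and the cause was not tested. At 24 against 12 months leaving out libraries moved the log2 fold change of CD2 from −0.27 to 0.12 and of CD27 from −0.24 to 0.11. That of CD2 turned to 0.12 without 12-month replicate 3, and that of CD27 to 0.11 without 24-month replicate 1 and 0.10 with RefSeq transcripts only, none of them called.

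Replicate numbers did not pair the goats: same-numbered libraries had correlations of their deviations from the group means of −0.115 to −0.101 at 12 and 1 month, −0.212 to 0.393 at 24 and 1 month and −0.107 to −0.0078 at 24 and 12 months. With the replicate block 6, 7 and 0 receptors and 21, 26 and 0 list genes were called, with CTLA4 at −2.11 and CD27 at −2.10 not called at 12 months and CTLA4 at −2.41 not called at 24 months. Over all genes the block gave 982 calls at 12 months, 1860 at 24 months and 19 between 12 and 24 months.

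DESeq2 called 7 receptors in each comparison with 1 month, BTLA among them, and gave no adjusted p for CD5 and CD6. The share of all genes that DESeq2 called in these comparisons is not given here, so this count is not set against a background. BTLA was also called at 24 months with no filter and with all 9 libraries in one fit, and CTLA4 was not called with limma (−1.63 and −1.77). The other settings left the receptor counts within 1.5 times those reported. At these depths, levels under 0.0836 to 0.174 CPM were not detectable.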

Other observations

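Other immune cell lists gave the following counts of called genes. The T cell list was lower for 8 of 8 genes at both older ages, with medians of −7.06 and −6.37. The 6 thymocyte genes reported here were all lower at both ages, with medians of −11.3 and −10.3, and the thymic epithelium list for 5 of 5 tested, with medians of −9.90 and −9.63. Of the 5 B cell genes reported here 4 were lower at each age, with medians of −3.69 and −3.44, among them MS4A1, which encodes CD20, at −5.48 (adjusted p = 0.0141, edgeR) and −5.02 (adjusted p = 0.0131).

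Of 4 regulatory T cell genes, 1 was called lower at each older age: FOXP3 at 12 months, at −2.41 (adjusted p = 0.0468, edgeR), and IL2RA at 24 months, at −2.73 (adjusted p = 0.0167). Of the 3 follicular helper T cell genes tested, CXCR5 and BCL6 were called lower at both older ages. CXCR5 was at −3.89 (adjusted p = 0.0160, edgeR) and −3.66 (adjusted p = 0.0112), and BCL6 at −2.20 (adjusted p = 0.0355) and −2.23 (adjusted p = 0.0294). In the natural killer and cytotoxic list 4 of 6 were called lower at 12 months and 0 of the 4 tested at 24 months. There 3 had an unadjusted p under 0.05 in edgeR. A difference between these ages was called for 0 of the 2 tested. The myeloid list was called lower for 1 of 5 and 2 of 5 genes, and the lymph node stroma list for 2 of 5 and 2 of 4. In the salivary list 0 of 6 genes were called lower, with 0 called higher at 12 months and 1 at 24 months, and medians of 2.21 and 2.55.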
